A study of Homo sapiens with 6 samples.

Results

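Cystatins and cathepsins are 2 protein families that meet in and around the lysosome, and 10 of their genes were examined here among the 20381 genes of the count table. The genes were taken by symbol. They comprised the stefins *CSTA* and *CSTB*, the secreted cystatins *CST3* and *CST6*, the cysteine cathepsins *CTSB*, *CTSH*, *CTSL* and *CTSS*, the aspartic cathepsin *CTSD* and the serine carboxypeptidase *CTSA*. The members were chosen by gene family, but with the log2 fold changes of PON1-OE over NC in these same libraries already known, so their differences are described below and not tested.

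The libraries were poly(A) RNA-seq from HCCLM3, a human hepatocellular carcinoma cell line that the sample labels call a hepatocyte line. In the 3 PON1-OE libraries the cells carried a lentiviral vector with the coding sequence of *PON1*, the gene of the serum esterase paraoxonase 1. In the 3 NC libraries they carried the empty lentivirus, and the methods of the study describe both groups as stable lines selected with puromycin. The series' design text instead places lysis 24 h after transfection, in medium with 15% serum.

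Cathepsins are made as inactive precursors, sorted to the lysosome by the mannose 6-phosphate tag and activated there by cleavage at acidic pH. Cystatins are tight, reversible inhibitors of the papain-like cysteine cathepsins. Stefins act inside the cell, secreted cystatins act on enzyme that has leaked or been released, and neither type inhibits the products of *CTSD* or *CTSA*. In liver tumors the family is known mainly for matrix degradation and for lysosomal turnover.

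The totals per library were 15706672 to 17948383 counts, and 3 counts, the limit used for detection, corresponded to 0.166 to 0.192 CPM (counts scaled to library size). *PON1* had 0, 2 and 3 counts in NC against 155, 181 and 167 in PON1-OE. The counts do not separate transcripts of the vector from those of the endogenous gene. Among 11 hepatocyte and liver cancer markers, *KRT8* led with 2410 CPM in NC against 2352 in PON1-OE, and *HNF4A* had 78.6 and 80.2 CPM. The secreted liver proteins were low. Lower in PON1-OE were *APOB* at 5.77 and 4.49 CPM, *FGB* at 1.02 and 0.668 CPM and *ALB* at 0.578 and 0.456 CPM. So were *SERPINA1* at 0.0582 and 0.0203 CPM and *TTR* at 0.0564 and 0.0208 CPM. Higher in PON1-OE were *AFP* at 0.513 and 0.933 CPM and *APOA1* at 0.0921 and 0.105 CPM. The means of *SERPINA1*, *TTR* and *APOA1* lay below the limit used for detection, and these genes were not tested. By edgeR, with adjustment over all genes tested, p was 0.443 for *APOB*, 0.511 for *AFP*, 0.692 for *FGB* and 0.865 for *ALB*. None of the 8 markers tested passed the adjusted threshold, so no change is read from these directions. The summed level of the 11 markers was 3774 to 4274 CPM in NC against 3928 to 4162 CPM in PON1-OE.

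The 10 genes took 0.411, 0.413 and 0.414% of the counts in NC against 0.420, 0.433 and 0.424% in PON1-OE. In all, 9 genes were detected and *CST6* had no count in any library. The largest fold difference among the members was in *CSTA*, the least abundant of those detected, at 2.30-fold the NC mean of CPM. *CTSB* and *CTSL* were 1.06-fold and 1.07-fold the NC mean, and the other 6 had overlapping ranges in both groups. The plot of CPM by library shows these values.

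**Figure D1:**
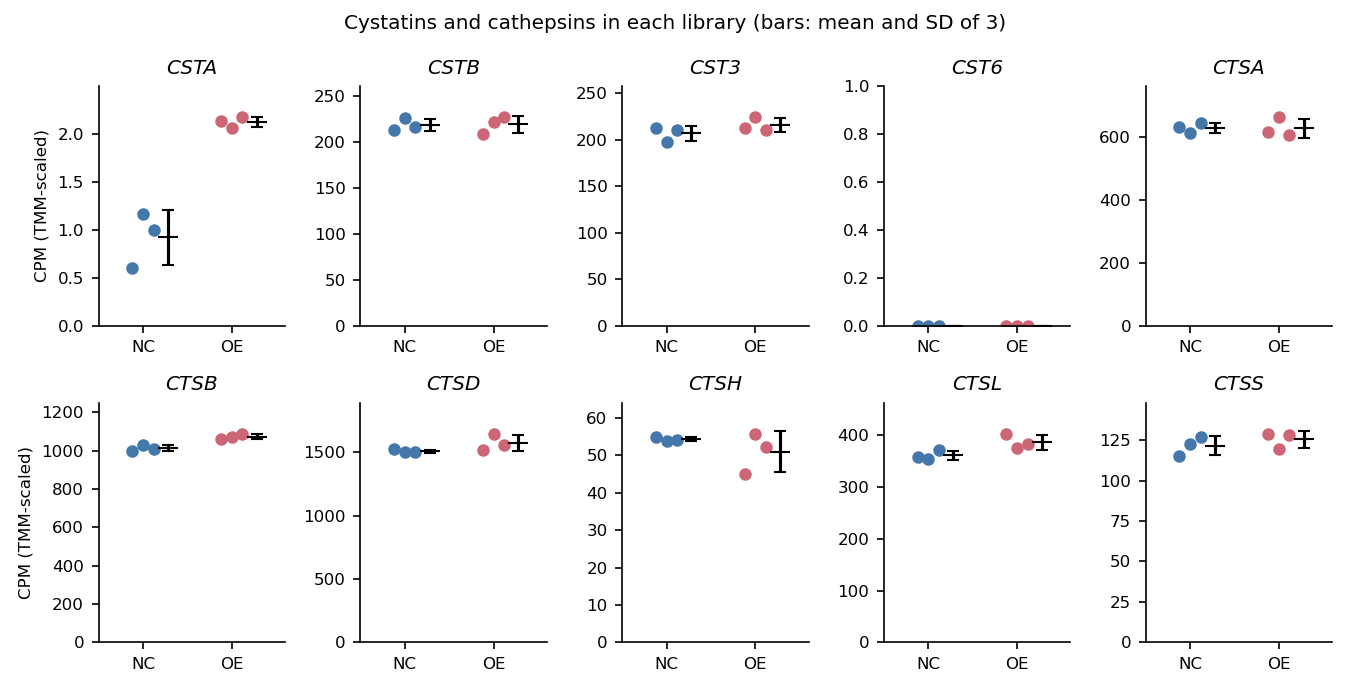
Level of each of the 10 genes in CPM (vertical axes, each from 0) in the 3 NC and 3 PON1-OE libraries. Points are libraries, and the horizontal mark and bar give the mean and SD of 3; the groups do not overlap for *CSTA*, *CTSB* and *CTSL*, and *CST6* is at 0 throughout.

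The inhibitors are taken first. *CSTA* encodes stefin A, a cytosolic inhibitor of cysteine cathepsins best known from epidermis and lymphoid tissue. *CSTA* had 10, 21 and 17 counts in NC against 35, 33 and 34 counts in PON1-OE. On the CPM scale it stood at 0.606, 1.16 and 0.997 in NC against 2.13, 2.06 and 2.17 in PON1-OE. Every PON1-OE library lay above every NC library, and NC 1 was the lowest of the 6. The means were 0.921 ± 0.285 and 2.12 ± 0.0540 CPM (SD, n = 3 each).

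The fitted log2 fold change (log2FC) of *CSTA* was 1.19 (SE 0.31), with a 95% interval of 0.54 to 1.83. By size of log2FC it stood at place 19 of the 11958 genes tested, and by level at place 11229 of the genes in the table. The log2FC was 0.97 without NC 1 and 1.39 without NC 2, the lowest and highest of 13 alternatives. It rested on 10 to 35 counts a library, the fewest of the detected members. In bulk RNA, a higher level in each cell and more cells with *CSTA* cannot be told apart.

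*CSTA* and *CSTB* are the 2 human stefins in the list, and their coding sequences were compared because *CSTB* reads outnumber *CSTA* reads by a wide margin. Each coding sequence has 297 bases. With no gaps, 172 bases were identical (57.9%), and the longest identical run was 11 bases. In the annotated *CSTA* transcript with the longest coding sequence, which has 751 bases, no stretch of 31 bases occurred in a transcript of another gene, and its other transcripts were not searched.

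The *CSTA* gene spans chr3:122325244-122341972. Of 16 genes in the table within 500 kb of it, 12 were tested. By edgeR, with adjustment over all genes tested, 0 of them passed at 0.05, and 1 had an unadjusted p under 0.05. Of all genes tested, 0.677% and 11.1% did. Their log2FC ran from -0.28 to 0.24 around a median of -0.02, with 5 higher and 7 lower. The difference in *CSTA* was larger than that of any tested neighbor. Because *CSTA* was listed with its log2FC known, this is a description only.

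*CSTB* (chr21:43772511-43776445, minus strand) encodes stefin B, the stefin found in most cell types. Its level was 213, 226 and 217 CPM in NC against 209, 222 and 227 CPM in PON1-OE. The ranges overlapped, and the means were 219 ± 6.79 and 220 ± 9.33 CPM. Its log2FC was 0.0057 (SE 0.041), with a 95% interval of -0.08 to 0.09. The sign turned when NC 1, NC 3, PON1-OE 2 or PON1-OE 3 was left out, between -0.02 and 0.04.

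*CST3* (chr20:23626706-23638473, minus strand) encodes cystatin C, the secreted inhibitor measured in blood as a marker of kidney filtration. Its level was 213, 198 and 211 CPM in NC against 213, 224 and 211 CPM in PON1-OE, so the groups overlapped. The means were 207 ± 8.07 and 216 ± 7.27 CPM, with a log2FC of 0.06 (SE 0.041; 95% interval -0.03 to 0.15), or 0.03 without NC 2 or PON1-OE 2. *CST6* (chr11:66011841-66013505, plus strand) encodes cystatin M/E, an inhibitor known from the skin barrier. It had 0 counts in all 6 libraries, which allows a level of up to 0.166 to 0.192 CPM in a library, for counting error only.

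Among the cysteine cathepsins, *CTSB* (chr8:11842524-11869448, minus strand) was the most abundant in CPM. Cathepsin B cuts within proteins and also removes dipeptides from their ends. Its level was 1001, 1031 and 1009 CPM in NC against 1061, 1072 and 1089 CPM in PON1-OE. The lowest PON1-OE library lay above the highest NC library, with means of 1014 ± 15.6 and 1074 ± 13.9 CPM. The log2FC was 0.08 (SE 0.031; 95% interval 0.02 to 0.15), and it ran from 0.07 to 0.10 over the alternatives.

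*CTSL* (chr9:87725519-87731393, plus strand) encodes cathepsin L, a strong endopeptidase that also processes other cathepsins. Its level was 358, 355 and 372 CPM in NC against 403, 375 and 383 CPM in PON1-OE. The groups did not overlap, with PON1-OE 1 the highest and PON1-OE 2 close to NC 3. The means were 362 ± 9.05 and 387 ± 14.6 CPM, and the log2FC was 0.10 (SE 0.037; 95% interval 0.02 to 0.18). Of the 31-base stretches in its transcript with the longest coding sequence, 4.98% also occurred in its pseudogenes or in *CTSV*, which had 8 to 21 counts a library.

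*CTSS* (chr1:150730196-150765957, minus strand) encodes cathepsin S, which trims the invariant chain in antigen-presenting cells. Its level was 115, 123 and 127 CPM in NC against 129, 119 and 128 CPM in PON1-OE. The groups overlapped, with a log2FC of 0.05 (SE 0.048), which ran from 0.0090 without NC 1 to 0.08 without PON1-OE 2. *CTSS* is abundant in myeloid cells, and 10 myeloid markers were therefore examined beside it. *PTPRC*, *LYZ*, *TYROBP* and *AIF1* were at 0 in all libraries. *ITGAM* had 4.85 CPM in NC against 5.61 CPM in PON1-OE. *SPI1* had 0.195 and 0.272 CPM, and the means of *CD14*, *CSF1R* and *FCER1G* lay below these. The summed level of the list was 211 to 231 CPM in NC against 230 to 254 CPM in PON1-OE, nearly all of it from *CD68*, a lysosomal membrane protein (215 and 235 CPM). Of the 10 markers only *CD68* and *ITGAM* had enough counts to be tested, and neither passed the adjusted threshold.

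*CTSH* (chr15:78921058-78949574, minus strand) encodes cathepsin H, which acts mainly as an aminopeptidase. It was the least abundant cathepsin of the list, at 54.9, 53.7 and 54.2 CPM in NC against 44.9, 55.7 and 52.2 CPM in PON1-OE. NC varied little, whereas PON1-OE 1 stood below the other 5 libraries and PON1-OE 2 above them. The means were 54.3 ± 0.570 and 51.0 ± 5.50 CPM. The log2FC was -0.09 (SE 0.069; 95% interval -0.23 to 0.05), and it was -0.0037 without PON1-OE 1 and -0.16 without PON1-OE 2.

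The remaining 2 enzymes are not targets of cystatins. *CTSD* (chr11:1752752-1764573, minus strand) encodes cathepsin D, the main aspartic protease of the lysosome. Its level was 1521, 1497 and 1503 CPM in NC against 1518, 1644 and 1552 CPM in PON1-OE. PON1-OE 1 lay inside the NC range and PON1-OE 2 was the highest library. The means were 1507 ± 12.4 and 1571 ± 65.3 CPM, with a log2FC of 0.06 (SE 0.033; 95% interval -0.01 to 0.13). It was 0.03 without PON1-OE 2 and 0.09 without PON1-OE 1.

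The annotated gene ENSG00000250644 overlaps *CTSD* on the same strand over 1304 exonic bases, and 60.9% of the 31-base stretches of the *CTSD* transcript with the longest coding sequence also occur in it. It held 1380 to 1967 counts a library, at 103 ± 11.5 CPM in NC against 94.8 ± 9.37 CPM in PON1-OE. *CTSD* held 92.9 to 94.8% of the counts of both genes. With their counts summed, the log2FC was 0.05 (SE 0.034), a choice added after the data were seen.

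*CTSA* (chr20:45890144-45898820, plus strand) encodes cathepsin A, a carboxypeptidase that also protects lysosomal beta-galactosidase and neuraminidase from degradation. Its level was 632, 612 and 644 CPM in NC against 616, 663 and 605 CPM in PON1-OE. The groups overlapped, and the means were 629 ± 15.7 and 628 ± 30.3 CPM. The log2FC was -0.0024 (SE 0.037), and its sign turned when NC 1, NC 3, PON1-OE 1 or PON1-OE 3 was left out. Exons of *NEURL2* and *PLTP* overlap those of *CTSA* on the opposite strand, and had 21 to 46 and 0 to 2 counts a library. Whether reads of these genes were counted under *CTSA* was not tested.

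Of the 10 genes, 9 passed the filter on low counts. By edgeR (quasi-likelihood, Benjamini-Hochberg over all genes) none had an adjusted p under 0.05, where 0.677% of all tested genes did (81 of 11958), and none passed when the minimum |log2FC| of the study's methods was added, where 0.0502% did. The results of the study name p without the word adjusted, and by that minimum with an unadjusted p the single member was *CSTA*, where 0.61% of all genes passed. At an unadjusted p under 0.05 the members were *CSTA*, *CTSB* and *CTSL*, all higher in PON1-OE, against 11.1% of all genes. The same 3 genes had groups that did not overlap in CPM, against 16.1% of all genes. Limma-voom gave 0 members at an adjusted p under 0.05 and 3 at an unadjusted p, where 65 and 1309 of 11958 genes passed. DESeq2 also gave 0 and 3, where 122 and 857 of all genes passed. But it gave an adjusted p for 8 of the 9 members, without *CSTA*, and for 4576 of 15540 genes. Without the filter, or with at least 10 counts required in every library, *CSTA* alone of the members was under the adjusted threshold. Of all genes, 177 of 15542 and 86 of 11550 were, in that order. *CSTA* just met the second rule, with 10 counts in NC 1. At the unadjusted threshold *CTSB* was lost without NC 1 or PON1-OE 3, and *CTSL* without NC 1, NC 2 or PON1-OE 1. In turn *CTSD* was added without PON1-OE 1 and *CTSH* without PON1-OE 2, while *CSTA* was present each time. Because the list was chosen with this contrast known, nothing is read from these counts.

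The median log2FC of the 9 genes was 0.06, beside -0.0025 for all genes tested, and 7 were higher and 2 lower. Among all tested genes the lower and upper deciles of log2FC were -0.16 and 0.15. Apart from *CSTA*, every tested member lay between them. The plot of log2 fold changes shows the width of each interval.

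**Figure D2:**
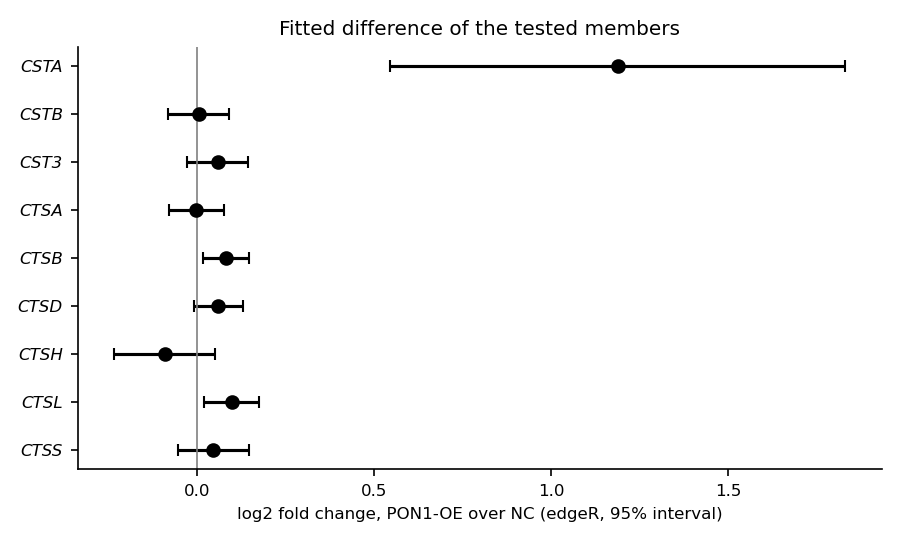
Fitted log2 fold change of PON1-OE over NC (horizontal axis) for the 9 tested genes, with the 95% interval of the edgeR fit as a description of precision. *CSTA* lies at 1.19 with the widest interval, and the other 8 lie between -0.09 and 0.10.

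Protease and inhibitor levels can be compared between genes only per length of transcript. For this, counts were divided by the length of all exons of a gene merged and scaled to the sum over all genes, as TPM. In NC the order of TPM was *CTSD* (1889 ± 15.7), *CTSL* (599 ± 11.7), *CTSB* (535 ± 11.3), *CTSA* (421 ± 7.80), *CST3* (220 ± 7.36), *CSTB* (218 ± 7.95), *CTSS* (113 ± 5.39), *CTSH* (36.1 ± 0.325) and *CSTA* (2.63 ± 0.823). The order of the means was the same in PON1-OE, from 1954 ± 56.8 for *CTSD* to 6.01 ± 0.220 for *CSTA*. *CST3* and *CSTB* were the only neighbors in the order whose ranges over the 6 libraries overlapped, and *CST3* was the higher in 4 of 6.

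The length model moved this order more than the condition did. Merged exons count retained introns and alternative ends, and *CTSB* has 7428 bases that way but 1389 in its principal transcript. With the median transcript length *CTSB* came first at 1657 TPM in NC, before *CTSD* at 1030, *CTSA* at 954 and *CTSL* at 349 TPM, and *CTSS* at 162 TPM stood above *CSTB* at 91.8 TPM. With the principal transcript, a choice added after the data were seen, *CTSB* came first at 1472 TPM in NC, before *CTSD* at 1432 TPM. *CSTA* was last of the detected genes under all 3 lengths, at 2.48 TPM in NC against 5.65 TPM in PON1-OE with the principal transcript. The plot of levels per length shows the 3 length models side by side.

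**Figure D3:**
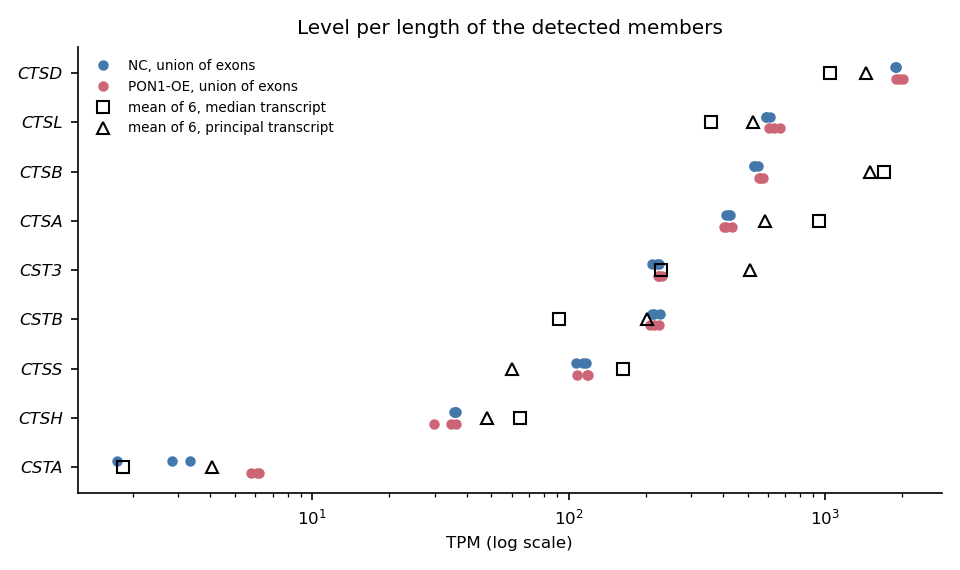
Level per length in TPM (horizontal axis, log scale) of the 9 detected genes. Circles are the 6 libraries with merged exons, squares and triangles are means of the 6 libraries with the median and the principal transcript length; *CTSB* moves the most upward and *CSTA* stays near the bottom.

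The summed TPM of the inhibitors *CSTA*, *CSTB* and *CST3* was 440 ± 1.32 in NC against 450 ± 8.28 in PON1-OE. The summed TPM of the cysteine cathepsins *CTSB*, *CTSH*, *CTSL* and *CTSS* was 1282 ± 17.3 and 1347 ± 38.0. The ratio of inhibitor to protease was 0.348, 0.342 and 0.340 in NC against 0.320, 0.349 and 0.335 in PON1-OE. With the median transcript length the ratio was 0.142 in NC and 0.140 on average in PON1-OE, so its size depended on the length model. With merged exons the groups overlapped, with PON1-OE holding both the lowest and the highest library. *CSTA* made up 0.597% of the inhibitor sum in NC against 1.34% in PON1-OE, so that its difference hardly entered the ratio. The ratio is one of mRNA and does not measure protein or enzyme activity.

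The surroundings of these genes were read from 7 lists with 125 other genes of the lysosome and of protease inhibition, of which 102 were tested. By the adjusted p, 2 passed, where 0.677% of all tested genes did (edgeR, adjusted over all genes). Of the 81 genes called in all, 60 were higher in PON1-OE and 21 lower, and these 2 list genes were both higher. By unadjusted p, 8 were higher and 3 lower, 11 in all, and 16 had groups that did not overlap in CPM, where the shares over all genes were the 11.1% and 16.1% given above. Limma-voom called the same 2 genes, and DESeq2, which gave an adjusted p for 68 of the list genes, called 3, *ULK1*, *NPC1* and *IGF2R*. The median log2FC over the 102 genes was 0.01. The plot of the lists shows the members beside them.

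Of 10 other cathepsins, 7 were tested and none passed in edgeR, with or without adjustment. *CTSZ*, a carboxypeptidase, was the most abundant at 143 and 145 CPM. *CTSV*, the close relative of *CTSL*, had 0.484, 0.940 and 0.997 CPM in NC against 1.28, 1.31 and 1.21 CPM in PON1-OE. All PON1-OE libraries lay above NC in *CTSV*, as in *CSTA*, with NC 1 again the lowest, and its log2FC was 0.64 (SE 0.36) with an adjusted p of 0.538 in edgeR's test. It was 0.39 without NC 1. *CTSK*, the collagen-degrading cathepsin of osteoclasts, had a log2FC of -0.35 and an adjusted p of 0.678. Of 20 other cystatins and protease inhibitors, 10 had no count in any library and 2 were tested, *SERPINB6* (93.4 and 92.5 CPM) and *SERPINB1* (68.9 and 71.6 CPM). Of all cystatins listed, *CSTA*, *CSTB* and *CST3* were thus those above the filter.

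Among 34 lysosomal hydrolases and activators, 33 were tested and none passed, with 4 at an unadjusted p under 0.05 in edgeR. Beside this count, and the unadjusted counts of the lists below, stands the share of 11.1% over all tested genes. *PSAP*, the precursor of the saposins, had 2933 and 2909 CPM. *GM2A*, the activator of GM2 ganglioside breakdown, had the highest log2FC of the list at 0.20, with 33.0 ± 1.03 CPM in NC, 38.1 ± 1.06 CPM in PON1-OE and an adjusted p of 0.217 in edgeR's test. The lowest was *IDUA*, alpha-L-iduronidase, at -0.25, but -0.01 without NC 2 and -0.37 without NC 1. *ARSB*, arylsulfatase B, followed at -0.23 with groups that did not overlap and an adjusted p of 0.450 in edgeR's test, and was named after its value was seen. All 17 membrane proteins were tested and none passed in edgeR, with 2 at an unadjusted p under 0.05. Of these, *CD63* led with 1568 and 1592 CPM, and *NPC1*, the exporter of lysosomal cholesterol, had a log2FC of 0.15 (SE 0.036; adjusted p = 0.0613) and was under the threshold without the filter, with at least 10 counts in every library, or without NC 2.

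All 16 subunits of the vacuolar ATPase, the pump that acidifies the lysosome, were tested and none passed in edgeR, with 2 at an unadjusted p under 0.05. *ATP6V1D* had the highest log2FC at 0.11 and *ATP6V1A* the lowest at -0.11. None of 14 genes for enzyme sorting passed and 1 had an unadjusted p under 0.05 in edgeR, with *M6PR*, a mannose 6-phosphate receptor, at 541 and 546 CPM. *GNPTAB*, which makes the mannose 6-phosphate tag, had a log2FC of 0.23, which was 0.03 without PON1-OE 3, 0.09 without NC 1 and 0.45 without NC 2. *SORT1*, a sorting receptor, had one of -0.10. The median log2FC was -0.00065 for the pump and 0.0038 for the sorting genes.

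Of 14 genes for lysosome and autophagy transcription and receptors, 13 were tested, and 5 were higher and 8 lower in PON1-OE. By the adjusted p in edgeR 2 passed, both higher, where 0.677% of all tested genes passed. *ULK1*, the kinase that starts autophagy, had 64.8, 61.9 and 67.4 CPM in NC against 79.8, 76.4 and 76.7 CPM in PON1-OE. The groups did not overlap, and its log2FC was 0.26 (SE 0.053; adjusted p = 0.0222). *WIPI1*, a phosphoinositide-binding protein of early autophagosomes, had 17.4, 17.0 and 16.5 CPM in NC against 23.3, 21.5 and 22.0 CPM in PON1-OE, with a log2FC of 0.39 (SE 0.084; adjusted p = 0.0318). *TFEB*, a transcription factor of lysosomal genes, had 4.03 ± 0.238 CPM in NC against 3.53 ± 0.651 CPM in PON1-OE (log2FC -0.19, adjusted p = 0.786; log2FC -0.05 without PON1-OE 3 and -0.31 without PON1-OE 1), and *SQSTM1*, an autophagy receptor, had 5004 and 5067 CPM. The median of the list was -0.02. Both calls were lost when NC 1, NC 2, NC 3, PON1-OE 1 or PON1-OE 3 was left out, with adjusted p of 0.0689 to 0.0957 for *ULK1* and 0.0598 to 0.202 for *WIPI1*. DESeq2 gave *WIPI1* no adjusted p (unadjusted p = 0.000554). The labels do not say that libraries of a group came from separate cultures, so all p-values describe the spread between these libraries.

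**Figure D4:**
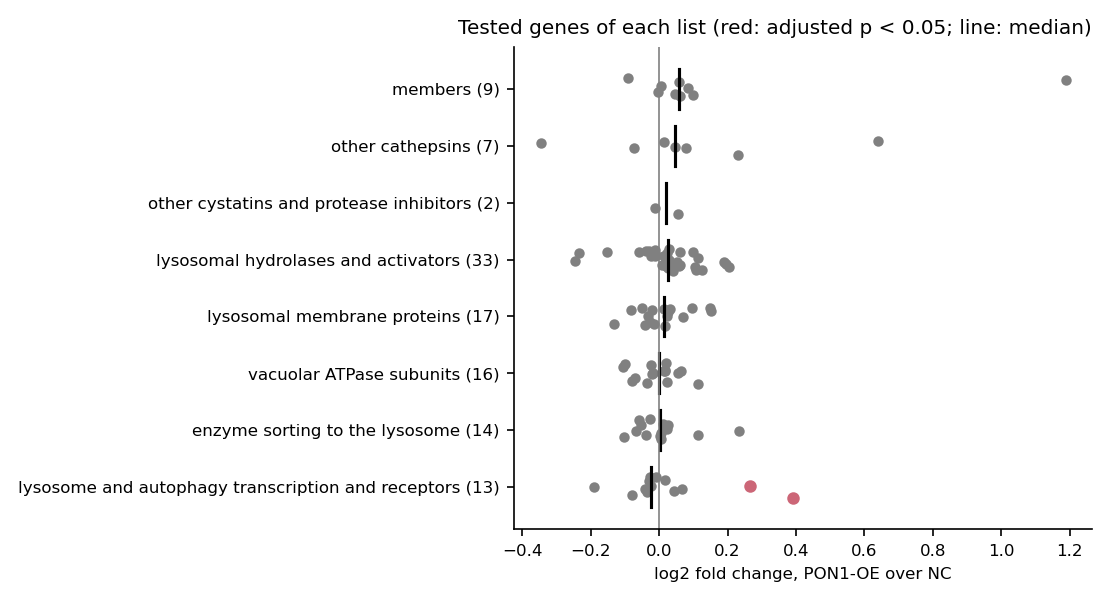
Fitted log2 fold change of PON1-OE over NC (horizontal axis) for each tested gene of the members and of the 7 lists (rows, number tested in brackets). Vertical bars are list medians and the 2 red points, *ULK1* and *WIPI1*, have an adjusted p under 0.05; *CSTA* at 1.19 and *CTSV* at 0.64 lie farthest to the right.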

How the data were processed

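The authors deposited estimated counts per gene for the 6 libraries, not normalized, and 10.1 to 10.8% of the values in a library were not whole. The submitters' processing notes name Bowtie2 2.2.8, HISAT2, StringTie 1.3.1 and DESeq2. The genome build and annotation are not given in the sources used here. Estimated counts were rounded and fitted with edgeR 4.0.16 under R 4.3.3 (filterByExpr, which kept 11958 genes, TMM scaling, glmQLFit and glmQLFTest without covariates), with Benjamini-Hochberg adjustment over the genes tested. The design table had named counts, and rounding was the added step. DESeq2 1.42.0 and limma-voom (limma 3.58.1) were alternatives, as were RLE scaling, filters, unrounded values, a replicate block, and leaving out each library. The edgeR fit was first tested on simulated counts. These had the same dispersion for all genes, and changes only in genes with a higher level than *CSTA*.

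CPM was computed on TMM-scaled totals. Depth was 15706672 to 17948383 counts per library, and intervals cover the spread between libraries while the limit of 3 counts covers counting error only. Lengths, positions and exon overlaps came from GENCODE release 29 (GRCh38), which held 20126 of the 20381 identifiers. Shared sequence was counted as stretches of 31 bases, in each member's transcript with the longest coding sequence, that occur in transcripts of another gene, and stretches in *CSTB*, *CTSB* and *CTSS* were shared at 1.45%, 7.36% and 6.79% with genes of other families. The aligned stefin sequences are not reported here. TPM was computed here.

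The members and lists were chosen with earlier results of these data known. Genes named are the members, genes sharing sequence or exons with a member, *PON1*, list genes with an adjusted p under 0.05, the most abundant gene and those with the highest and lowest log2FC of a list, and leading markers. Further markers were named after their values were seen, as the defining genes of their cell type or to show the rest of a list.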

Additional observations from a re-analysis of the deposited data

How the results depend on the processing

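The 81 genes called among all tested became 177 without the filter on low counts, 86 with at least 10 counts in every library and 122 with DESeq2. They became 6 with the study's minimum |log2FC| as well and 1325 at an unadjusted p. Leaving out a library gave 11 (without NC 3) to 103 (without PON1-OE 2). The 0 members called became 1 without the filter and 1 with at least 10 counts in every library, *CSTA* in both, and 3 at an unadjusted p, or 1 at an unadjusted p with the study's minimum |log2FC| (73 of all genes), rules added after the data were seen; they were 0 without any single library. The 2 list genes called became 11 at an unadjusted p and 0 to 2 without a library. With the replicate number as a block, 40 genes and 0 list genes were called, with adjusted p of 0.0510 for *ULK1* and 0.0787 for *WIPI1*. Libraries with the same number did not deviate together (r = 0.0533, -0.165 and -0.0925 over genes with a mean of at least 50 counts), so the numbers were not taken as a pairing, and not every library correlated best with its own number. The ratio of inhibitor to cysteine cathepsin was 0.142 in NC and 0.140 in PON1-OE with the median transcript length, and 0.339 and 0.332 with the principal one. The sign of log2FC turned in *CSTB* and *CTSA* alone among the members, on leaving out a library. Few counts limit the precision for *CSTA* and *CTSV*. The cause of these shifts was not tested.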

Other observations

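Markers of 2 further cell types were measured, since stefin A is abundant in squamous epithelium and cathepsins are abundant in fibroblasts. Of 6 squamous markers, *KRT5*, *IVL* and *SPRR1B* were at 0 in all libraries, *TP63* led at 0.388 CPM in NC against 0.270 CPM in PON1-OE, and the summed level was 0.553 to 0.606 CPM in NC against 0.375 to 0.575 CPM in PON1-OE. No squamous marker passed the filter on low counts. The summed level of 7 fibroblast markers was 16.0 to 21.0 CPM in NC against 16.7 to 20.2 CPM in PON1-OE. Nearly all of it came from *LUM* at 13.7 and 13.0 CPM and *DCN* at 4.27 and 5.10 CPM. The means of *COL1A1*, *COL1A2* and *COL3A1* were at most 0.123 CPM, and *PDGFRA* was at 0. The part of such cells in the level of *CSTA* was not tested beyond these values.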
